A study of Mus musculus with 12 samples.

Results

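The angiotensin, endothelin and natriuretic peptide systems are 3 hormone systems that set blood pressure and salt balance and also act within fat. Their 9 genes were Agt, Ace, Agtr1a, Edn1, Ednra, Ednrb, Npr1, Npr2 and Npr3. The genes were chosen by topic, with earlier results of these data known. Their counts beside the shares of all genes are therefore a description and not a test. They came from the probe sets of the array that were annotated to exactly 1 gene. Where a gene had several, the brightest by its mean across the 12 arrays stood for it. That left 8 genes of the 22180 tested, since no such probe set was found for Ednra, which was not analysed here. The choice between probe sets concerned Npr1 only, whose kept probe set had a mean of 7.55 on the log2 scale, against 5.36 for the other.

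The series used Affymetrix arrays on material of C57BL/6 mice, taken fresh, with 3 biological replicates in each of 4 groups. Perigonadal visceral fat (VAT) and inguinal subcutaneous fat (SAT) each gave a preparation of adipose progenitors, AP, and a sample of the whole tissue, AT. AP were what remained of the stromal vascular fraction, the non-fat cells released by digestion, after magnetic beads had taken out lineage-positive and CD31-positive cells, so AP is a depleted fraction and not a positively sorted cell type. Depots of several mice were pooled for AP, and the labels give neither the age nor the sex of the mice, nor which animals stand behind a replicate number. The p-values therefore measure the spread between these arrays.

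In the angiotensin system, angiotensinogen (Agt) is cut by renin to a peptide that angiotensin-converting enzyme (Ace) turns into angiotensin II, which acts through the receptor encoded in rodents mainly by Agtr1a. Endothelin-1 (Edn1), a constrictor of vessels made chiefly by endothelium, signals through the receptors encoded by Ednra and Ednrb. The natriuretic peptides oppose both by raising cyclic GMP through the guanylyl cyclase receptors Npr1 and Npr2, while Npr3, the clearance receptor, takes the peptides up and removes them. In human fat cells natriuretic peptides are known to drive lipolysis.

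The 250 bases before the gene start are printed for the 4 genes that differed between the depots by at least 2-fold with a passed test in AP or AT, because these carry the depot pattern. They come from RefSeq (GRCm38.p6), where 8 of the 9 genes had a promoter entry, all but Agtr1a. The stretches are chr8:124569707-124569956 on the minus strand for Agt, chr13:42301226-42301475 on the plus strand for Edn1, chr14:103843702-103843951 on the minus strand for Ednrb and chr15:11907372-11907621 on the minus strand for Npr3, each read 5′ to 3′ in the direction of its gene. Capitals mark matches, on either strand, to the TATA box (TATAAA), the box named CCAAT, the GC box (GGGCGG) or the site of AP-1 factors (TGANTCA).
Agt: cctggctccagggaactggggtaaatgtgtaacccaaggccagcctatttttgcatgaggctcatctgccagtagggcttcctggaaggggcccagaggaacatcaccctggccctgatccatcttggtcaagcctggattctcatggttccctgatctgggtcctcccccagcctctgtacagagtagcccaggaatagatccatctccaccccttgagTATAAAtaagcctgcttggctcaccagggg
Edn1: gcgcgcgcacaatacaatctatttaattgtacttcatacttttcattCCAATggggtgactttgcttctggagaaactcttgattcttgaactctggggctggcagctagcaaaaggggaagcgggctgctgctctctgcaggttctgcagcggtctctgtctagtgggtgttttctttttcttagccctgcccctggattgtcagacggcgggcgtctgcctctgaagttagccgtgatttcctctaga
Ednrb: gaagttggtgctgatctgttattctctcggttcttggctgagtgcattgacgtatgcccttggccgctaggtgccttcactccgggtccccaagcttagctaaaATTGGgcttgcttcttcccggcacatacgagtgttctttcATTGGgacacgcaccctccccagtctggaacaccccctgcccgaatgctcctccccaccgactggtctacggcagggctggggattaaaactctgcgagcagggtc
Npr3: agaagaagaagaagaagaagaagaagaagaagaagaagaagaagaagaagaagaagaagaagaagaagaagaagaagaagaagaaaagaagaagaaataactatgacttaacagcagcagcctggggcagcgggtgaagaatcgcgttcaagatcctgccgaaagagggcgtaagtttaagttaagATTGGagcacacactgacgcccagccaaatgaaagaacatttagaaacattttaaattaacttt
Agt held TATAAA 30 bases before its start. Edn1 held CCAAT 203 bases before its start, Ednrb held it on the opposite strand at 146 and 106 bases, and Npr3 held it on the opposite strand at 64 bases. No match overlapped another, and neither TGANTCA nor the GC box was in these 4 windows. Over all 32851 promoter entries, counted with their 50 bases after the start, TATAAA was in 13.6%, CCAAT in 37.4%, GGGCGG in 35.7% and TGANTCA in 7.81%. A match describes the letters and is not evidence of binding.

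The labelled preparations could be told from the tissue by their markers. Pdgfra, which marks adipose progenitors, averaged 11.05 in AP and 8.58 in AT of VAT, and 11.07 in AP and 8.92 in AT of SAT. Pecam1, the gene of CD31, averaged 4.98 in AP and 7.81 in AT of VAT, and 4.94 in AP and 7.91 in AT of SAT. Of the listed markers measured, 7 of 7 for progenitors passed the test as higher in AP of both depots, and 9 of 9 for adipocytes and 8 of 8 for macrophages as lower. Pericyte and smooth muscle markers were also mostly higher in AP, 10 of 11 in VAT and 8 of 11 in SAT. So were mast cell markers, 4 of 5 in VAT and 3 of 5 in SAT. Immediate early and stress genes were higher in AP for 15 of 15 in both depots, with summed linear signals of 27763 to 33788 in AP and 1196 to 1713 in AT. All AP and none of the AT samples had been digested, so handling and cell content cannot be told apart between AP and AT. In bulk samples, fewer cells of a type and less RNA per cell also cannot be told apart.

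AT from SAT replicate 3 ran high for these genes. It was the highest of its group for all 8, by 0.21 (Npr2) to 1.41 (Edn1) on the log2 scale over the mean of replicates 1 and 2. The share of all genes with their highest value of the group on this array is not given, so the count is only a description. Its summed progenitor markers reached 15061, against 9856 and 9388 in replicates 1 and 2, and its lymphocyte markers 174, against 406 and 360. Its sums were also the highest of its group for macrophage (5424), mast cell (1355), lymphatic endothelial (1005), endothelial (2639) and Schwann cell markers (108). They were the lowest for mesothelial markers (354). Margins were narrow for mesothelial markers (363 in replicate 1) and endothelial markers (2563 in replicate 2). Values without this array stand beside many, but not all, of the results that it changes. Without it, AP minus AT in SAT was 2.41 for Agt and 2.50 for Ace, and VAT minus SAT in AT was 1.68 for Npr3. Medians of the arrays lay between 4.49 and 4.67, and correlations between arrays of a group between 0.9800 and 0.9890.

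Beside AT, the AP arrays carried more Ace, Agtr1a, Npr1 and Npr2 RNA in both depots and far less Npr3 RNA. In VAT, 4 of the 8 genes were higher in AP and 2 lower at an adjusted p under 0.05, where 15.8% of all genes were higher and 16.8% lower (32.6% in all). In SAT, 6 were higher and 1 lower, with a background of 16.1% higher and 16.3% lower (32.4% in all). All 3 values of AP lay above or all below those of AT for 7 of the 8 genes in VAT and 6 in SAT, and for 40.9% and 44.6% of all genes. The median difference over the 8 genes was 0.36 in VAT and 1.38 in SAT, beside 0.03 over all genes in each depot. All differences are on the log2 scale of the authors' RMA values, and the tests are limma with Benjamini-Hochberg adjustment over all genes. Each of the 8 genes lay above 4.09, the 40th percentile of all probe sets, in all 4 groups.

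**Figure D1:**
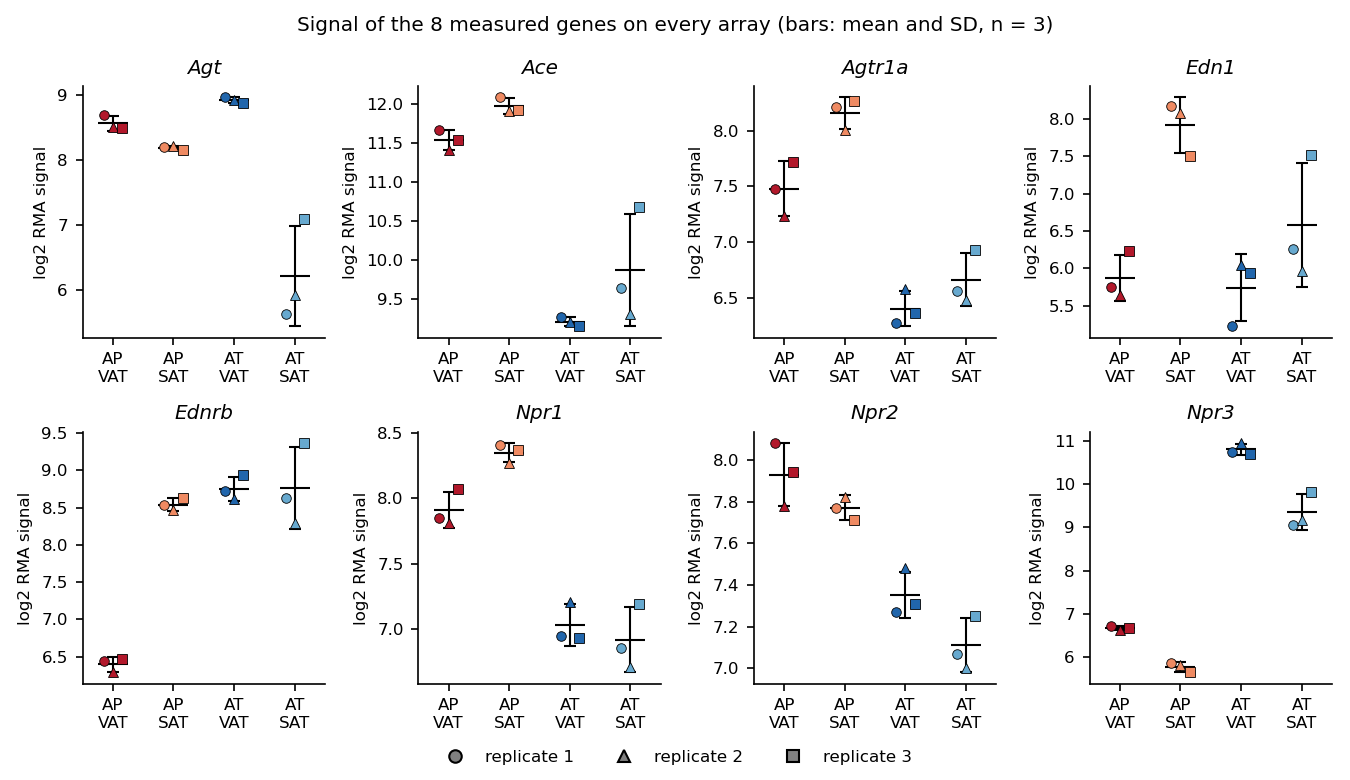
Signal of each gene on every array, as log2 RMA values on separate vertical axes, with points for replicates and bars for the mean and SD of 3 arrays. Ednrb is low only in the 3 AP arrays of VAT (6.29 to 6.47), Agt is low only in the 3 AT arrays of SAT (5.63 to 7.09), and Npr3 is low in all 6 AP arrays (5.65 to 6.71).

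The precursor of the angiotensins, Agt, had its low point in subcutaneous whole tissue. Its log2 signal was 8.69, 8.51 and 8.49 in AP from VAT, and 8.20, 8.21 and 8.15 in AP from SAT. In whole tissue it was 8.96, 8.92 and 8.88 in AT from VAT, and 5.63, 5.92 and 7.09 in AT from SAT. The order was AT from VAT, AP from VAT, AP from SAT and AT from SAT, and no neighbours in that order overlapped. In SAT, AP exceeded AT by 1.97 (SE 0.2496, 3.93-fold, limma adjusted p = 1.29e-05). In VAT the difference was -0.36, with a 95% interval of -0.89 to 0.18 and an adjusted limma p of 0.310, which fell to 0.0172 without AT from SAT replicate 3, since the fit shares 1 spread over all groups.

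Between the depots, Agt was higher in VAT than in SAT by 2.71 in AT (6.53-fold, limma adjusted p = 7.67e-06), and by 3.15 without AT from SAT replicate 3. In AP the depot difference was 0.38 (limma adjusted p = 0.563, and 0.0498 without that array). The interaction, which subtracts the depot difference of AT from that of AP, was -2.33 (SE 0.3529, limma adjusted p = 0.00273). Some marker lists also moved with the depot in whole tissue. Mesothelial markers, of the cell layer that covers visceral fat, passed the test as higher in VAT for 9 of 9, with summed signals of 3091 to 3823 in AT from VAT and 354 to 418 in AT from SAT. The same list was higher in VAT for 9 of 9 in AP, with 4434 to 6134 in AP from VAT and 359 to 480 in AP from SAT, where the Agt difference was 0.38. Of 9 adipocyte markers, only 1 passed as higher and 1 as lower in VAT within AT. Their sums were 27264 to 28351 in AT from VAT and 25324 to 25857 in AT from SAT. Of 5 mast cell markers, 0 passed as higher and 4 as lower in VAT within AT. Their sums were 302 to 360 in AT from VAT and 588 to 1355 in AT from SAT. The part of these lists in the Agt difference was not tested.

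Ace, the enzyme that forms angiotensin II and also breaks down bradykinin, had a wider gap between AP and AT than Agt or Agtr1a in both depots. It read 11.67, 11.42 and 11.54 in AP from VAT, and 9.27, 9.21 and 9.15 in AT from VAT. In SAT it read 12.09, 11.92 and 11.93 in AP, and 9.65, 9.31 and 10.69 in AT. The groups did not overlap in either depot. AP exceeded AT by 2.33 in VAT (5.04-fold, limma adjusted p = 1.48e-06) and by 2.10 in SAT (4.28-fold, 4.14e-06). All 3 VAT arrays lay below all 3 SAT arrays in both kinds of sample, yet the depot differences of -0.44 in AP and -0.67 in AT had limma adjusted p of 0.431 and 0.149. The AP difference had an adjusted p of 0.0346 without AT from SAT replicate 3, and the AT difference shrank to -0.27 without it.

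Agtr1a, the receptor that carries most of the actions of angiotensin II, ran in the same order of preparations as Ace. Its signal was 7.48, 7.23 and 7.72 in AP from VAT, and 6.27, 6.58 and 6.36 in AT from VAT. In SAT it was 8.21, 8.01 and 8.27 in AP, and 6.56, 6.48 and 6.93 in AT. AP lay above AT on every array of a depot, by 1.07 in VAT (2.10-fold, limma adjusted p = 3.36e-05) and by 1.51 in SAT (2.84-fold, 9.28e-07). Within AP it was lower in VAT than in SAT by 0.69 (difference -0.69, 95% interval -1.00 to -0.37, limma adjusted p = 0.00965). That call was lost without AP from SAT replicate 3 (adjusted p = 0.0511) or without AP from VAT replicate 2 (0.0628). In AT the depots overlapped, with a difference of -0.25 (0.448), and of -0.12 (0.797) without AT from SAT replicate 3.

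**Figure D2:**
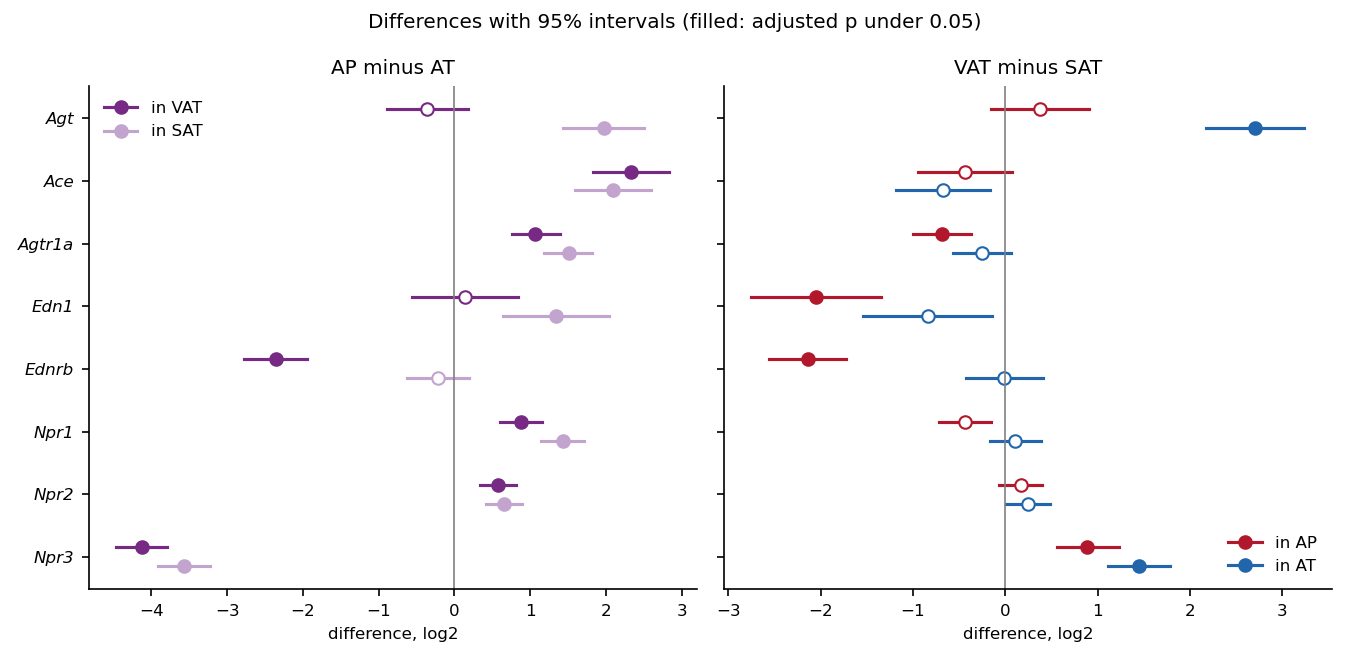
Differences of group means for the 8 genes, in log2 units, with 95% intervals of the limma fit and filled points where the adjusted p was under 0.05. On the left AP minus AT, where Npr3 lies lowest (-4.12 in VAT, -3.57 in SAT), and on the right VAT minus SAT, where Edn1 (-2.05) and Ednrb (-2.14) are lower in VAT in AP and Agt (2.71) is higher in VAT in AT.

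Edn1 and Ednrb, a ligand and a receptor of the endothelin system, were both lower in the visceral than in the subcutaneous progenitor preparations. Over all 8 genes, 1 was higher and 3 were lower in VAT than in SAT within AP, where 3.03% of all genes were higher and 2.60% lower (5.64% in all). The median depot difference in AP was -0.44, beside -0.00 over all genes. Within AT, 2 of the 8 were higher in VAT and 0 lower, with a background of 2.80% higher and 1.75% lower (4.55% in all). The arrays of the 2 depots were apart for 7 of the 8 genes in AP and 4 in AT, and for 20.4% and 18.1% of all genes. At an unadjusted limma p under 0.05, 2 genes were lower in AT from VAT, Ace and Edn1 (0.0126 and 0.0217), beside 7.02% of all genes. At that threshold 3 were higher, Agt, Npr3 and also Npr2 (0.0412), beside 8.76% of all genes.

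Edn1, which encodes the endothelin-1 precursor, read 5.75, 5.64 and 6.23 in AP from VAT, and 8.18, 8.08 and 7.50 in AP from SAT. In whole tissue it read 5.22, 6.05 and 5.94 in AT from VAT, and 6.26, 5.96 and 7.52 in AT from SAT. Every AP array of VAT lay below every AP array of SAT, and the AT groups overlapped. The depot difference was -2.05 in AP (4.13-fold lower in VAT, limma adjusted p = 9.25e-04) and -0.84 in AT (0.205), and the AT difference was -0.37 (0.554) without AT from SAT replicate 3. Their difference of -1.20 had a limma adjusted p of 0.249. Without AT from SAT replicate 3, which at 7.52 reached the level of AP from SAT replicate 3 (7.50), this last value was -1.67 (0.0143).

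Between preparations, Edn1 was higher in AP than in AT of SAT by 1.34 (limma adjusted p = 0.00460), although the replicates overlapped, and by 1.81 without AT from SAT replicate 3. In VAT the difference was 0.14, with a 95% interval of -0.56 to 0.84 (0.795). Endothelial markers were lower in AP for 9 of 10 in both depots. Their summed signal was 468 to 542 in AP from VAT and 1827 to 2508 in AT from VAT. In SAT it was 438 to 495 in AP and 2357 to 2639 in AT. None of the 10 markers was under the near-background level of 4.09 in any group, but Cldn5 was close to it in AP (4.10 in VAT, 4.35 in SAT). Immediate early and stress genes, given above, were higher in AP for 15 of 15 in both depots. The part of endothelial cells or of handling in the Edn1 difference was not tested.

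Ednrb, a receptor that binds all endothelin isoforms, was low in visceral progenitor preparations alone of the 4 groups. It read 6.44, 6.29 and 6.47 in AP from VAT, and 8.54, 8.46 and 8.63 in AP from SAT. In whole tissue it read 8.72, 8.61 and 8.93 in AT from VAT, and 8.63, 8.29 and 9.36 in AT from SAT. The 3 higher groups overlapped their neighbours, and AP from VAT lay apart from all of them. AP was lower than AT in VAT by 2.35 (difference -2.35, SE 0.1949, 5.11-fold, limma adjusted p = 1.67e-07). In SAT the difference was -0.22, with a 95% interval of -0.63 to 0.20 (0.465), and it was 0.08 without AT from SAT replicate 3 and -0.51 (0.0482) after scaling on housekeeping genes.

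Within AP, Ednrb was lower in VAT than in SAT by 2.14 (difference -2.14, 4.42-fold, limma adjusted p = 4.17e-06). In AT the depot difference was -0.01, with a 95% interval of -0.42 to 0.41, and 0.29 (0.311) without AT from SAT replicate 3. The AP depot difference minus the AT one was -2.14 (SE 0.2756, limma adjusted p = 8.15e-04), and -2.44 without AT from SAT replicate 3. Of the 8 genes, 2 passed this interaction test, Agt and Ednrb, both as lower, where 0.987% of all genes passed as higher and 1.16% as lower (2.15% in all). Without AT from SAT replicate 3, Edn1, Npr1 (-0.69, 0.0469) and Npr3 (-0.79, 0.0131) passed it too.

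Several marker lists differed between the depots within AP. Pericyte and smooth muscle markers were higher in VAT for 4 of 11, with sums of 9983 to 11180 in AP from VAT and 8096 to 8468 in AP from SAT. Progenitor markers were lower in VAT for 2 of 7, the collagen genes Col1a1 (-0.84) and Col3a1 (-0.59). Their list had sums of 22400 to 23113 in AP from VAT and 26538 to 27235 in AP from SAT. The other 5 passed no test here, with differences from -0.35 (Cd34) to 0.15 (Dcn), and -0.03 for Pdgfra and 0.01 for Pdgfrb. Mast cell markers were lower in VAT for 3 of 5, with 852 to 1227 in AP from VAT and 2056 to 2358 in AP from SAT. Of these 5, Ms4a2 averaged 3.92 in AP from VAT and 4.15 in AP from SAT, near the background level in both, and the others lay above 4.09 in every group. Immediate early and stress genes were lower in VAT for 3 of 15, with 27763 to 30513 in AP from VAT and 30950 to 33788 in AP from SAT, and Ptgs2 had a difference of -1.42. Endothelial markers were higher in VAT for 2 of 10, Kdr (1.37) and Emcn (0.81). Schwann cell markers, of a lineage in which Ednrb is known to act, summed to 56 to 62 in AP from VAT and 76 to 83 in AP from SAT, and of the 3 measured S100b was under 4.09 in both and Cdh19 in AP from VAT. The mesothelial list, given above for Agt, also rose in VAT. The part of these lists in the Edn1, Ednrb and Agtr1a differences was not tested.

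**Figure D3:**
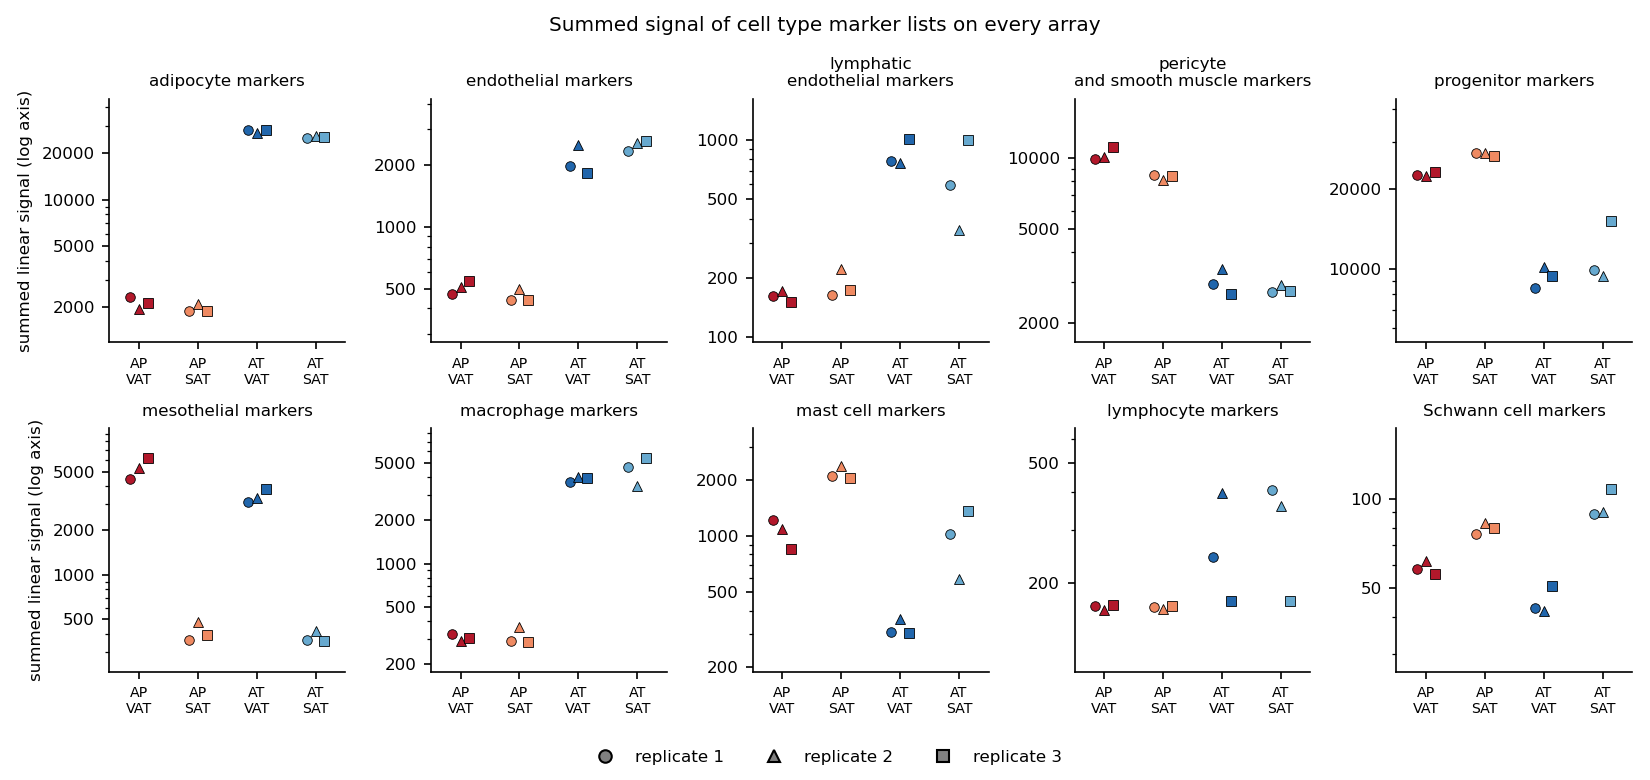
Summed linear signal of 10 cell type marker lists on every array, on log axes, with points for the 3 replicates of each group. Mesothelial markers are high in both VAT groups (3091 to 6134) beside both SAT groups (354 to 480), and AT from SAT replicate 3 (square) has the highest progenitor sum of the AT arrays (15061).

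The receptors of the natriuretic peptides split by type, with both cyclase receptors higher in AP and the clearance receptor higher in AT. Npr1, the cyclase receptor for the atrial and B-type peptides, read 7.85, 7.81 and 8.07 in AP from VAT, and 6.95, 7.21 and 6.93 in AT from VAT. In SAT it read 8.41, 8.27 and 8.37 in AP, and 6.86, 6.71 and 7.19 in AT. AP and AT did not overlap in either depot. AP exceeded AT by 0.88 in VAT (1.84-fold, limma adjusted p = 7.21e-05) and by 1.43 in SAT (2.69-fold, 4.48e-07).

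Within AP, all Npr1 values of VAT lay below those of SAT, with a difference of -0.44 (limma adjusted p = 0.0678, and 0.0318 without AT from SAT replicate 3). In AT the depots overlapped (0.11, limma adjusted p = 0.769, with 0.25 without AT from SAT replicate 3 and -0.09 after scaling on housekeeping genes). The other Npr1 probe set, which did not enter the tests, averaged 5.78 ± 0.39 in AP and 4.93 ± 0.36 in AT of VAT, and 5.78 ± 0.18 in AP and 4.94 ± 0.14 in AT of SAT (SD, n = 3 each). These means were higher in AP than in AT of both depots and did not part the depots within AP.

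Npr2, the cyclase receptor for the C-type peptide, read 8.08, 7.78 and 7.94 in AP from VAT, and 7.27, 7.48 and 7.31 in AT from VAT. In SAT it read 7.77, 7.82 and 7.71 in AP, and 7.07, 7.00 and 7.25 in AT. AP lay above AT throughout, by 0.58 in VAT (1.49-fold, limma adjusted p = 6.87e-04) and by 0.66 in SAT (1.58-fold, 1.95e-04). The depot differences, VAT minus SAT, were 0.17 in AP (0.563) and 0.25 in AT (0.285). Npr2 had the narrowest span of the 8 genes, 0.83 between its highest and lowest group mean.

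Npr3, the clearance receptor, had the widest span of group means, 5.02. It read 6.71, 6.64 and 6.67 in AP from VAT, and 10.75, 10.94 and 10.70 in AT from VAT. In SAT it read 5.86, 5.83 and 5.65 in AP, and 9.06, 9.17 and 9.82 in AT. The 4 groups did not overlap. AP was lower than AT by 4.12 in VAT (difference -4.12, 17.4-fold, limma adjusted p = 3.09e-11) and by 3.57 in SAT (difference -3.57, 11.9-fold, 1.67e-10).

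Npr3 was also the 1 gene of the 8 that passed the test as higher in VAT in both kinds of sample, by 0.89 in AP (1.86-fold, limma adjusted p = 0.00217) and by 1.45 in AT (2.73-fold, 4.54e-05). The difference of these depot differences was -0.55 (limma adjusted p = 0.279), and -0.79 (0.0131) without AT from SAT replicate 3. Adipocyte markers moved with Npr3 between AP and AT, with 9 of 9 lower in AP of both depots. Their summed signal was 1934 to 2325 in AP from VAT and 27264 to 28351 in AT from VAT. In SAT it was 1878 to 2069 in AP and 25324 to 25857 in AT. Adipoq, which encodes the fat cell hormone adiponectin, averaged 5.25 in AP and 10.57 in AT of VAT, and 4.80 in AP and 10.32 in AT of SAT. The part of fat cell RNA in the Npr3 difference was not tested.

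For each gene, the 3 genes with the most similar pattern over the 12 arrays were taken by Pearson correlation among the 2793 others with an SD of at least 0.5 (2794 for Npr2). These values describe 4 groups of arrays and carry no test. Npr3 ran closest to Cav1, which encodes the coat protein of caveolae, with r = 0.995, then Gnai1 (0.994) and Gpt2 (0.992). Ace ran closest to Tmem100 (0.994), Antxr1 (0.994) and Serpinf1 (0.993), and Agtr1a to Irak3 (0.990), Galnt16 (0.988) and Slc38a2 (0.988). Ednrb ran closest to Pdgfc, a growth factor gene, with r = 0.971, followed by Syk (0.965) and Lgmn (0.958). Edn1 ran closest to Hpse (0.960), Cdh9 (0.950) and Sema3e (0.949), although Cdh9 at 3.27 was near background in AP from VAT and in AT from VAT. Agt had Prrg3 (0.962), Atp6v0e2 (0.962) and Ildr2 (0.951) as its nearest genes. For Npr1 they were Sh3gl1 (0.989), Ackr3 (0.988) and Snx33 (0.988), and for Npr2 Denn2b (0.982), Vtn (0.981) and Snhg18 (0.977).

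Of 44 other genes listed for the 3 systems and for receptor coupling, 40 were measured. The other 4 were not analysed here. AP against AT, 9 were higher and 9 lower in VAT, and 13 were higher and 11 lower in SAT, where 32.6% and 32.4% of all genes passed the test in either direction. VAT against SAT, 2 were higher and 5 lower in AP, and 1 was higher and 2 lower in AT, beside 5.64% and 4.55% of all genes. The same shares are the background for each list that follows. Their median differences were 0.06, 0.03, 0.00 and -0.05.

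Of 13 other angiotensin genes measured, 3 were higher and 3 lower in AP than in AT of VAT, and 4 were higher and 3 lower in SAT. Between the depots 1 was higher and 1 lower in VAT, in AP and likewise in AT. Anpep, an aminopeptidase that trims angiotensin III, was higher in AP by 1.94 in VAT and 2.13 in SAT (limma adjusted p = 1.50e-06 and 5.17e-07). Cma1, the mast cell chymase, which can form angiotensin II, was higher in AP by 1.08 in VAT and 1.37 in SAT. Mast cell markers were mostly higher in AP too. Cma1 was lower in VAT than in SAT by 1.09 in AP (difference -1.09, limma adjusted p = 0.00188) and by 0.80 in AT (difference -0.80, 0.0229), and mast cell markers were lower there too. The part of mast cells in the Cma1 differences was not tested. Enpep, the aminopeptidase that forms angiotensin III, was lower in AP than in AT of VAT (-0.71). Like Agt, it was higher in VAT than in SAT within AT (0.94, limma adjusted p = 0.00565). Nln (-1.03 in VAT, -0.64 in SAT) and Prcp (-0.53 in VAT, -0.65 in SAT), peptidases that degrade angiotensins, were lower in AP, and Rnpep was higher in VAT within AP (0.41). Group means of the other receptors Agtr1b (3.37 to 3.57) and Agtr2 (3.56 to 3.76) lay under 4.09 in all 4 groups.

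Of 5 other endothelin genes, Ece1, the main enzyme that releases endothelin-1, was higher in AP than in AT by 0.51 in VAT and 0.91 in SAT (limma adjusted p = 0.00410 and 2.45e-05). Ece2, a related enzyme, was higher in AP of SAT (0.47) and lower in VAT than in SAT within AP (-0.42, adjusted p = 0.0362). The ligand genes Edn2 (group means 5.00 to 5.34) and Edn3 (6.04 to 6.48) passed no test.

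Among 13 other natriuretic peptide genes, 4 were higher and 3 lower in AP than in AT in each depot, and 2 were lower in VAT than in SAT within AP and 1 within AT. Mme, which encodes neprilysin, a membrane peptidase that degrades natriuretic peptides and endothelins, averaged 6.01 in AP and 9.08 in AT of VAT, and 8.31 in AP and 9.99 in AT of SAT. It was lower in AP by 3.08 in VAT (difference -3.08) and by 1.67 in SAT (difference -1.67). It was lower in VAT than in SAT by 2.31 in AP (difference -2.31, limma adjusted p = 4.05e-07) and by 0.90 in AT (difference -0.90, 0.00439), with an interaction of -1.40 (0.00581). Its lowest group mean, like that of Ednrb, was in AP from VAT. Pde5a, a phosphodiesterase for cyclic GMP, was higher in AP by 1.43 in VAT and 1.25 in SAT, and Prkg1, a kinase activated by cyclic GMP, by 1.08 in VAT and 0.74 in SAT. Prkg2, the second such kinase, was higher in AP of SAT (1.22) and lower in VAT than in SAT within AP (-1.46, 3.45e-05), with an interaction of -1.00 (0.0368). Its group means were 4.34 in AP and 4.12 in AT of VAT, and 5.80 in AP and 4.58 in AT of SAT. Both VAT groups thus lay near the background level of 4.09. Ide, a peptidase that degrades insulin and atrial peptide, was lower in AP (-0.80 in VAT, -0.83 in SAT). Of the peptides, Nppa (group means 4.69 to 4.83) and Nppb (4.69 to 4.80), and the convertase Corin (5.40 to 5.61), passed no test, and Nppc was higher in AP of VAT (0.41, 0.0200).

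Of 9 genes that couple the angiotensin and endothelin receptors to the cell, 1 was higher and 3 lower in AP than in AT of VAT, and 3 were higher and 5 lower in SAT. Rgs4, which shortens signals through Gq proteins, was higher in AP by 3.13 in VAT and 3.15 in SAT (limma adjusted p = 2.58e-10 and 2.45e-10). Plcb1, a phospholipase driven by Gq, was lower in AP by 1.71 in VAT (difference -1.71) and by 2.03 in SAT (difference -2.03). Gnaq, the Gq subunit itself, was lower in AP of both depots (-0.65 in VAT, -0.44 in SAT). Rgs2 was lower (-1.73) and Plcb3 higher (0.41) in AP of SAT. Within AP, Plcb4 was higher (0.45) and Plcb3 lower (-0.39) in VAT than in SAT, and Plcb4 had an interaction of 0.72 (0.0329).

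**Figure D4:**
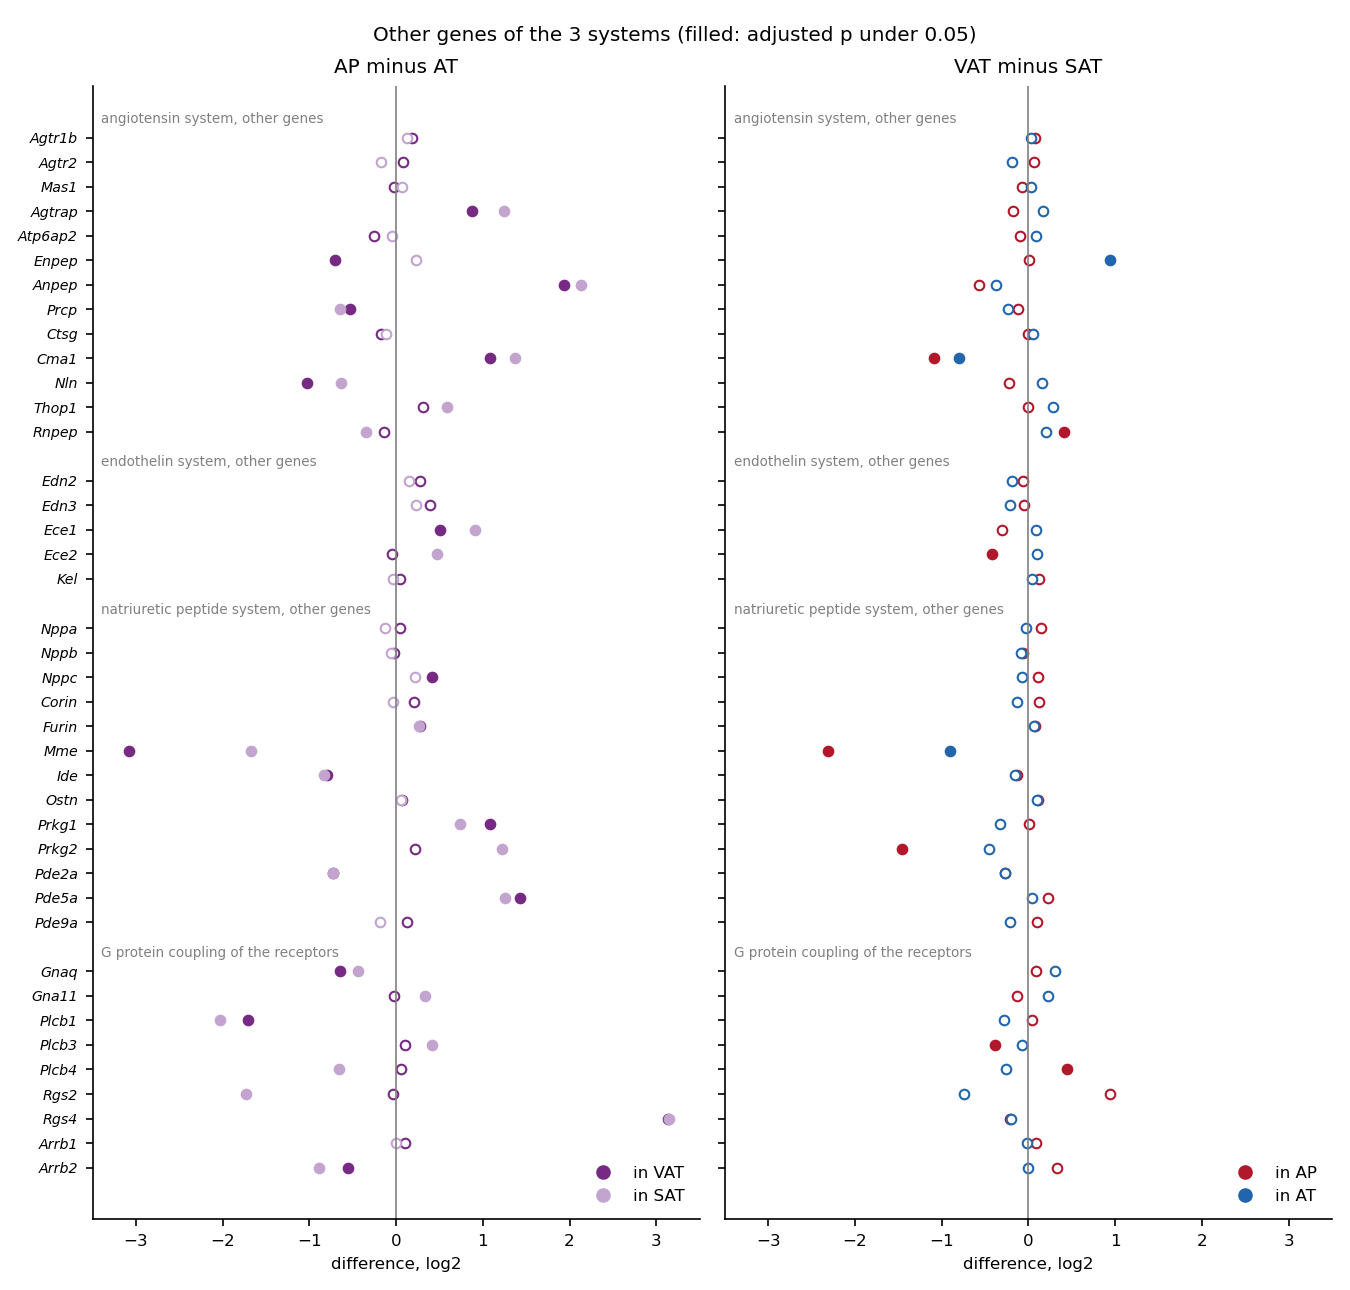
Differences of group means, in log2 units, for the 40 other genes measured, by list, with AP minus AT on the left and VAT minus SAT on the right and filled points where the adjusted limma p was under 0.05. Mme lies lowest on both sides (-3.08 in VAT, -2.31 in AP) and Rgs4 highest on the left (3.15 in SAT).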

How the data were processed

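RNA of 12 samples was measured on Affymetrix mouse arrays, 3 per group. The values are log2 signals per probe set that the authors deposited. They made them with RMA in Affymetrix Expression Console 1.3.0.187, per the submitters' processing notes. The annotation behind the probe sets is not given in the sources used here. The values ran from 1.69 to 13.48 and were used as deposited. Of 41345 probe sets, 23521 were annotated to 1 gene, 1814 to several and 16010 to none. Only the first kind was used, with 1 probe set per gene (22180 genes). For arrays, their number limits the precision.

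Group means were fitted over all 12 arrays with limma 3.58.1 in R 4.3.3 (8 residual and 6.84 prior degrees of freedom). Contrasts were AP minus AT in each depot, VAT minus SAT in each preparation, and the interaction, which subtracts the depot difference of AT from that of AP. Tests were 2-sided, with Benjamini-Hochberg adjustment over all genes and a threshold of 0.05. SE and 95% intervals are those of the moderated fit. Summed marker signals add linear values (2 to the power of the log2 value).

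The members and lists were chosen with earlier results of these data known. Other pathway genes were named where they were among the 2 largest called changes of a list in either direction of a contrast, or belonged to a set of ligands, enzymes and receptors. Alternatives were the replicate number as a fixed or random block, trend and robust eBayes, array weights, fewer arrays, quantile, cyclic loess and housekeeping scaling, a filter on dim genes, the mean over probe sets, a minimum difference and leaving out each array. The code was tested on simulated data. Figures were drawn with Python 3.11.15 and matplotlib 3.10.9.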

Additional observations from a re-analysis of the deposited data

Results flagged for a closer look

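Agt was singled out because the gap between AP and AT differed between the depots by the interaction test of limma. It was -0.36 in VAT and 1.97 in SAT, and the interaction was -2.33 (SE 0.3529, adjusted p = 0.00273). It ranged from -2.77 to -2.04 when each array was left out in turn.

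Ednrb was singled out by the same test. Its gap between AP and AT was -2.35 in VAT and -0.22 in SAT, and the interaction was -2.14 (SE 0.2756, adjusted p = 8.15e-04). It ranged from -2.44 to -1.90 when each array was left out in turn.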

How the results depend on the processing

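The number of the 8 genes that passed the test was 6 (AP against AT, VAT), 7 (AP against AT, SAT), 4 (VAT against SAT, AP), 2 (VAT against SAT, AT) and 2 (interaction). Leaving out 1 array at a time gave 6 to 7, 7 to 7, 3 to 7, 2 to 3 and 2 to 5. The high ends for AP and the interaction came without AT from SAT replicate 3. The fit shares 1 spread over all groups, which changes when that array is left out. These higher counts are therefore not read as a result about these genes. A demand for a log2 difference of at least 1 left 2 for VAT against SAT in AP. Scaling on 9 housekeeping genes gave 4 for VAT against SAT in AT, with Ace (-0.88, limma adjusted p = 0.0226) and Edn1 (-1.05, 0.0295) added. That scaling moved the median of all genes from 0.03 to -0.26 for AP against AT in SAT and from 0.00 to -0.20 for VAT against SAT in AT.

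Signs turned only for differences that had not passed the test. For AP against AT these were Edn1 in VAT (-0.04 without AP from VAT replicate 3, -0.12 without AT from VAT replicate 1) and Ednrb in SAT (0.08 without AT from SAT replicate 3, within -0.45 to 0.08 over all arrays left out). For VAT against SAT in AT they were Ednrb (0.04 with array weights, and 0.29, 0.01 and 0.06 without AT from SAT replicate 3, AT from VAT replicate 1 and AT from VAT replicate 2, within -0.24 to 0.29) and Npr1 (-0.09 with housekeeping scaling). For the interaction they were Npr2 (0.01 with quantile normalization, 0.03 with cyclic loess, 0.20 with housekeeping scaling) and Ace (-0.17 without AT from SAT replicate 3, within -0.17 to 0.52). The cause was not tested. Of single results under the settings that kept all arrays, 415 kept direction and side of the threshold, 5 lost and 7 gained the call and 5 turned.

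Over all genes, the minimum difference left 1966 of 7239 calls, 2204 of 7186, 370 of 1250, 251 of 1009 and 221 of 476, in the same order. With only the compared arrays 601 genes passed for VAT against SAT in AT, and 660 without AT from SAT replicate 1. For the interaction 264, 309, 279 and 293 genes passed without AP from SAT replicates 1 and 2, AP from VAT replicate 2 and AT from SAT replicate 1.

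With the replicate number as a block the counts of the 8 genes were 6, 7, 4, 2 and 2, and those over all genes 6968, 7013, 1187, 946 and 417. Deviations of samples with the same number correlated at -0.280 to 0.159, under 0.1 for most pairs, and the labels do not say whether such samples share animals, so the numbers were not taken as pairs. The interaction was not run with only the compared arrays, since it uses all of them. Signal over background and 3 arrays per group limit what small differences could be seen.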
